A study of Rattus norvegicus with 18 samples.

Results

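The cell cycle and DNA replication genes described here were 43 genes picked by symbol, from the cyclins that open the cycle to the proteins that split the cell, of which 42 stood in the authors' deposited table of 10431 named genes. Cenpe was not analysed here. All 42 passed the filter on low values used for testing, which kept 10296 genes with at least 1 FPKM (fragments per kilobase of transcript, scaled to library size) in at least 3 libraries. The cells were astrocytes that had been immunopanned, that is, captured on antibody-coated dishes, from the brains of rats at postnatal day 5, and each of 6 groups had 3 RNA sequencing libraries (n = 3). For 24 h the cells received PBS (control), interferon gamma (IFNγ, 3 ng/ml), interferon beta (IFNβ, 1000 U/ml), the mix of TNFα (30 ng/ml), IL1α (3 ng/ml) and C1q (40 ng/ml) written TIC here, IFNγ and TIC together (IFNγ+TIC), or IFNβ and TIC together (IFNβ+TIC). These doses are those of the labels, and a legend deposited with the table gives other doses of IFNγ, IFNβ and C1q. The labels name no strain, genotype or pooling of animals. Nor do they say whether a group's 3 libraries were separate cultures, so the p-values cover the spread among libraries, which may be technical.

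A dividing cell passes through a first gap phase, DNA synthesis, a second gap phase and mitosis. D cyclins with the kinases Cdk4 and Cdk6, and then Cdk2, release E2F transcription factors from the retinoblastoma protein, and E2F raises the genes of DNA replication. Cyclin A and cyclin B with Cdk1 carry the cell into mitosis, and their genes are repressed in resting cells by the DREAM complex, which binds a promoter element called the cell cycle homology region. Inhibitors such as p21, encoded by the p53 target Cdkn1a, and p27, encoded by Cdkn1b, hold the kinases back. Astrocytes of the early postnatal brain still divide, and interferons are known to slow the division of many cell types.

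Promoter windows are shown first because the replication and the mitotic genes, described in turn further on, differed in which element their windows held. RefSeq windows of the rat build GRCr8, from 250 bases before to 50 after the annotated start, were matched by symbol for 33 of the 42 genes. The E2F site was searched as TTTNNCGC, the cell cycle homology region as TTTGAA and the CCAAT box as CCAAT, each on both strands and with overlapping matches counted. An E2F match was found in 10 of 33 windows (30.3%), against 4.92% of 33469 rat windows, and 6 of the 10 lay among the 8 windows of replication and nucleotide genes. A cell cycle homology match was found in 15 of 33 (45.5%), against 18.3% of all windows. It occurred in 1 of 8 replication windows, 2 of 3 windows of the cyclins from S phase to mitosis with Cdk1, 5 of 7 of mitotic kinases and checkpoint genes, 4 of 6 of spindle genes and 3 of 4 of chromatin and growth markers. None of the 3 G1 and 2 inhibitor windows held either match. The CCAAT box, to which NF-Y binds, was in 26 of 33 (78.8%), against 37.5%. A match is a string of letters and not a measured binding site. The windows of Mcm5 (chr19:13488563-13488862, plus strand) and Mcm6 (chr13:42404303-42404602, minus strand) stand for the replication genes, with E2F matches in capitals. The forward and reverse E2F matches that overlap form 1 run of capitals in each. Cdk1 (chr20:19265043-19265342, plus strand) holds both kinds of match. Ccnb2 (chr8:79981609-79981908, minus strand), Top2a (chr10:84473044-84473343, minus strand) and Hmgb2 (chr16:37723901-37724200, minus strand) hold cell cycle homology matches, in capitals. Each is printed 5′ to 3′ in the direction of its gene.
Mcm5: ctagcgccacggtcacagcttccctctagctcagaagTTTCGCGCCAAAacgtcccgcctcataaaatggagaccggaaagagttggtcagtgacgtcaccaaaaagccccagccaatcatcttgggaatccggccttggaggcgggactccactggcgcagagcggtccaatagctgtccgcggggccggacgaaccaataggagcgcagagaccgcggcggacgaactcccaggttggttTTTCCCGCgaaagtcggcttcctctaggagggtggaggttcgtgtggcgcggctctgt
Mcm6: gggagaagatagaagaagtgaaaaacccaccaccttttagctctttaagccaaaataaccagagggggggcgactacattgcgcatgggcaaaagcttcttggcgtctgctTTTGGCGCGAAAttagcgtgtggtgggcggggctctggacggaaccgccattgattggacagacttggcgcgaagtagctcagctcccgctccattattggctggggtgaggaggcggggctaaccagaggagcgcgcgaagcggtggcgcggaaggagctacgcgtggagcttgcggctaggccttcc
Cdk1: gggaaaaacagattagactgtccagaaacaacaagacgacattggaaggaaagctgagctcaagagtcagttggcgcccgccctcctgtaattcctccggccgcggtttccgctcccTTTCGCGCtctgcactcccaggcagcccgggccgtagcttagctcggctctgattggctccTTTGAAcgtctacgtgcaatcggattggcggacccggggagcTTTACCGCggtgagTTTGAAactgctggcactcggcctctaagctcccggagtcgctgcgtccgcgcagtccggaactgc
Ccnb2: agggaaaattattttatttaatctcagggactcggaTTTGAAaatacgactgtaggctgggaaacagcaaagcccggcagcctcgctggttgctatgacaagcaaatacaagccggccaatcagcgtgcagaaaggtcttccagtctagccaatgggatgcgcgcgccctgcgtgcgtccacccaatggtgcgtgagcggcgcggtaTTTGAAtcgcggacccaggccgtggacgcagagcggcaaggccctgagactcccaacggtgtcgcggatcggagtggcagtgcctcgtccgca
Top2a: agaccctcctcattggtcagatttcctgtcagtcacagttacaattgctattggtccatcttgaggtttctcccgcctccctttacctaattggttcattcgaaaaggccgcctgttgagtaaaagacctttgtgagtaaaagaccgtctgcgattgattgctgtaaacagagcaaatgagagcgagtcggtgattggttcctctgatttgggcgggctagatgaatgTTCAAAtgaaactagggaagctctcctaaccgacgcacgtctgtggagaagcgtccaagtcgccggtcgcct
Hmgb2: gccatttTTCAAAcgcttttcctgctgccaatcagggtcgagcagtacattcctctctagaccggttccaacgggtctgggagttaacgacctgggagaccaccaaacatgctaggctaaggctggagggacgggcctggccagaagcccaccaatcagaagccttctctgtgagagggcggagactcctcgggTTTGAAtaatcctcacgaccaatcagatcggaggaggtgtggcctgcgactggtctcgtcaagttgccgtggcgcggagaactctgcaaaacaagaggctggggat

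**Figure D1:**
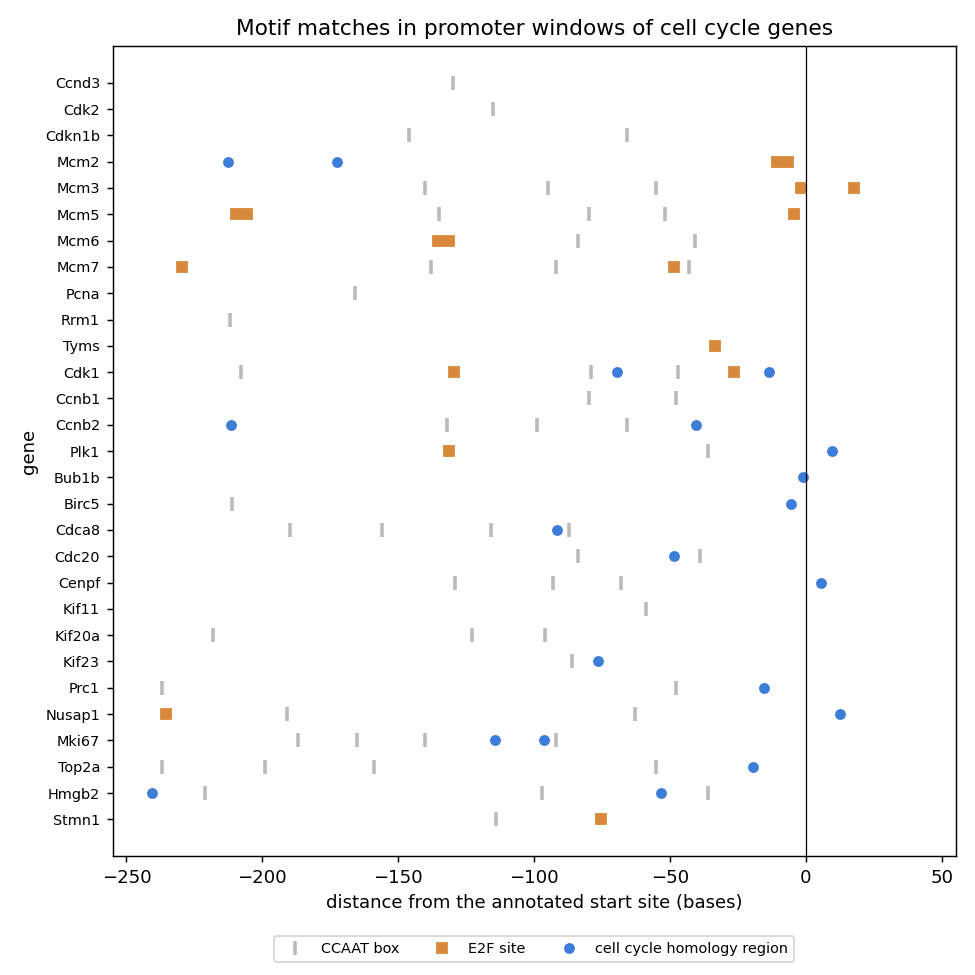
Positions of motif matches (horizontal axis, bases from the annotated start site) in the promoter windows of members with at least 1 match (vertical axis). Squares mark E2F sites, circles cell cycle homology regions and ticks CCAAT boxes; 6 of the 8 replication windows hold a square and 1 holds a circle.

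Library sums of FPKM lay between 505768 and 542909, and read depth was not used here. Log2 values of libraries in the same group correlated at 0.982 to 0.991, and those of different groups at 0.849 to 0.975. The astrocyte markers (9 of 9 in the table) summed to 3004 to 3285 FPKM in controls, 2883 to 3110 under IFNγ, 2240 to 2401 under IFNβ and 1317 to 1352 under TIC. That sum was 884 to 905 in the IFNγ+TIC group and 1260 to 1413 in the IFNβ+TIC group. The 9 markers did not move together. With TIC 4 were called lower and 3 higher (31.2% and 25.3% of all genes tested), with a median log2 change of -0.34. With IFNβ+TIC against TIC alone 2 were lower and 4 higher (31.5% and 9.86%). Markers of oligodendrocyte precursors, which also divide at this age, were present as well: 4 of 6 summed to 875 to 1116 FPKM in controls, 876 to 1017 with IFNγ, 897 to 1067 with IFNβ, 256 to 284 under TIC, 128 to 136 with IFNγ+TIC, and 233 to 286 with IFNβ+TIC. None of those 4 was at 0. Olig1 and Olig2 made up most of this sum and fell with TIC (-1.92, adjusted p = 1.5e-11, and -1.61, adjusted p = 1.6e-09), whereas Cspg4 rose (1.36, adjusted p = 1.7e-06) and Pdgfra was not called (-0.02, adjusted p = 0.926). Markers of mature oligodendrocytes (4 of 5 in the table) summed to 137 to 173 FPKM in controls, 184 to 219 under IFNγ, 330 to 390 under IFNβ, 66.9 to 78.2 under TIC, 80.04 to 81.04 in the IFNγ+TIC group and 154 to 185 in the IFNβ+TIC group. With IFNβ only 1 of these 4 was called higher and 0 lower (8.86% and 29.1% of all genes tested). Their median log2 change was 0.03, so the sum did not stand for every gene. Neuronal markers (3 of 6) summed to 30.4 to 41.2 FPKM in controls, 20.7 to 28.3 under IFNγ, 14.2 to 18.3 under IFNβ, 52.9 to 60.4 under TIC, 40.9 to 48.6 in the IFNγ+TIC group and 13.7 to 16.3 in the IFNβ+TIC group. Here too genes differed: with IFNγ+TIC 2 of the 3 were called higher and 1 lower than with TIC alone (7.42% and 21.8% of all genes tested), while the sum was lower. The 2 microglial genes in the table, of 7 listed, summed to 1.003 to 5.598 FPKM in controls. Pericyte and fibroblast markers (5 of 7) summed to 32.5 to 48.6 FPKM in controls, 65.5 to 96.3 under IFNγ and 70.0 to 96.6 under IFNβ. They summed to 28.2 to 33.3 under TIC, 78.6 to 94.3 with IFNγ+TIC and 50.7 to 59.2 with IFNβ+TIC. The precursor sum, like most cell cycle genes, was lower in the 3 groups given TIC, and it overlapped the controls under either interferon alone. The mature, neuronal, and pericyte and fibroblast sums left the control range with each interferon alone. The part of these cell types in the results was not tested. In bulk RNA, fewer dividing cells and less of these RNAs per cell cannot be told apart.

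All 3 single treatments lowered cell cycle genes, IFNγ in 21 of the 42, IFNβ in 36 and TIC in 37. The share of all 10296 genes that each treatment lowered was 7.17%, 29.1% and 31.2%. Level against control followed the same order: the median gene stood at 69.9% of its control mean with IFNγ (range 38.1% to 151%), 54.9% with IFNβ (31.5% to 123%) and 37.3% with TIC (8.52% to 230.4%). Adding an interferon to TIC left the count nearly where TIC had put it. It was 38 of 42 with IFNγ+TIC (40.4% of all genes lower) and 37 of 42 with IFNβ+TIC (42.8% of all genes lower), and the median gene stood at 30.7% and 36.0% of control. Genes called higher were few: 2 with IFNγ (7.11% of all genes), 2 with IFNβ (8.86%), 4 with TIC (25.3%), 2 with IFNγ+TIC (22.9%) and 1 with IFNβ+TIC (19.3%). A gene was called where limma's adjusted p, over all genes tested, was under 0.05.

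The median log2 change of the 42 genes, on the log2(FPKM + 1) scale used throughout, was -0.46 with IFNγ, -0.74 with IFNβ, -1.11 under TIC, -1.43 with IFNγ+TIC, and -1.24 with IFNβ+TIC. Over all genes tested it was -0.05, -0.16, -0.04, -0.15 and -0.20. Median-ratio scaling, which takes out such shifts, moved the median of all genes to -0.03 with IFNβ, 0.01 with IFNγ+TIC, and 0.00 with IFNβ+TIC. The members called lower were then 19 with IFNγ (5.4% of all genes), 31 with IFNβ (15.9%), 36 with TIC (28.0%), 35 with IFNγ+TIC (31.1%) and 31 with IFNβ+TIC (29.3%). Libraries of a treated group all lay below all 3 controls for 26 genes with IFNγ (15.8% of all genes tested), 35 with IFNβ (35.3%), 37 with TIC (33.2%), 38 with IFNγ+TIC (43.0%) and 36 with IFNβ+TIC (44.1%). The 5 comparisons share their 3 controls, so their values are set side by side and are not independent.

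**Figure D2:**
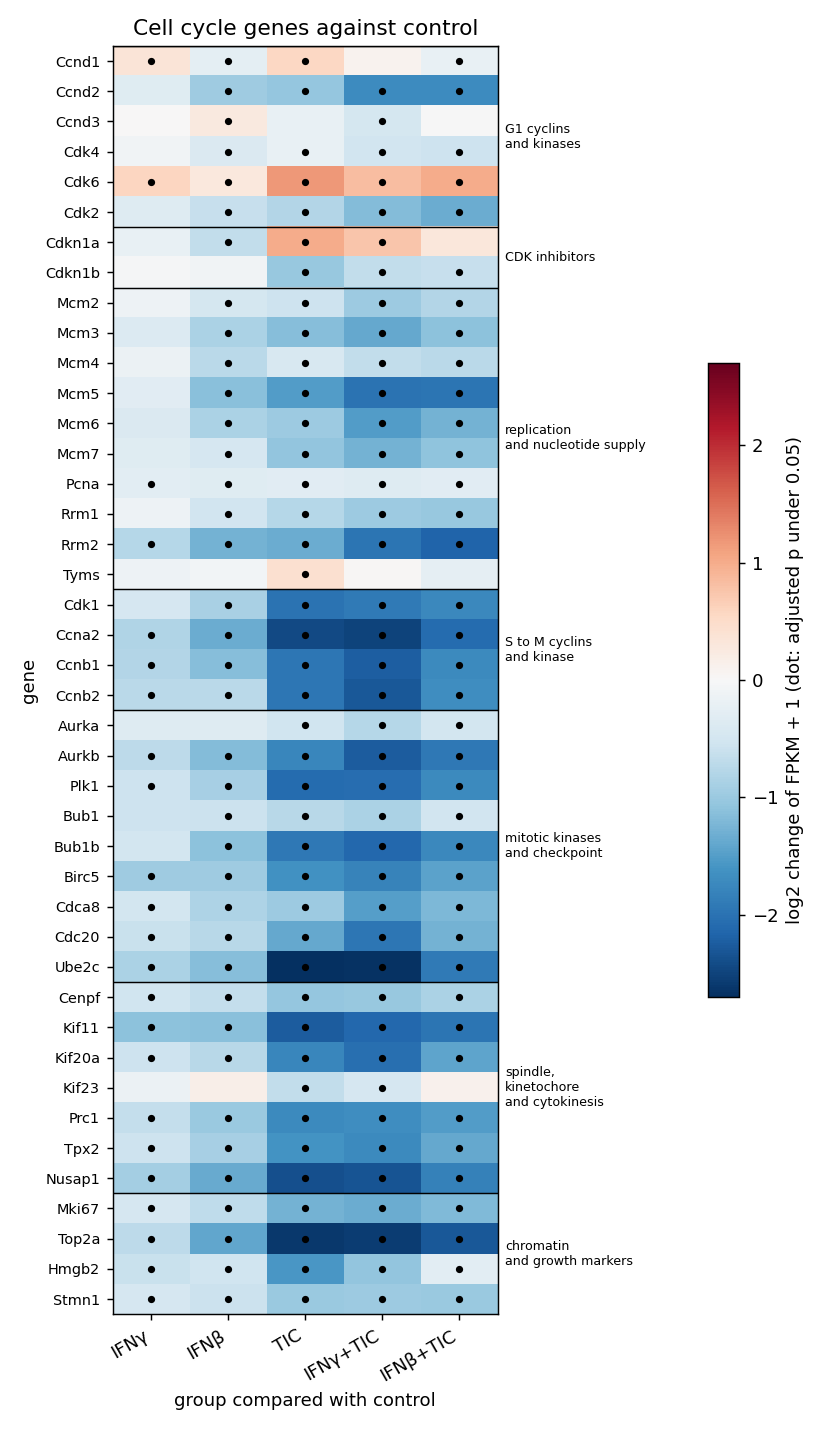
Log2 change of FPKM + 1 against control (colour scale, blue lower and red higher) for the 42 genes (rows, grouped by role) in 5 treated groups (columns, n = 3 libraries each). Dots mark an adjusted p under 0.05; blue covers most of the TIC columns, while Cdk6 is red in all 5 columns and Cdkn1a and Ccnd1 are red with TIC.

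Of the G1 cyclins and kinases, Cdk6 and Ccnd1 rose with TIC while Ccnd2, Cdk2 and Cdk4 fell. Ccnd1, which encodes cyclin D1, the first cyclin made when a cell is told to divide, stood at 348, 302 and 306 FPKM in controls. It was 409, 410.2 and 391 with IFNγ, 272, 274 and 246 with IFNβ and 461, 473 and 476 with TIC. The libraries of either IFNγ or TIC alone all lay above the controls and those of IFNβ below them. The log2 changes were 0.34 (SE 0.0607, adjusted p = 7.8e-04) with IFNγ, -0.27 (SE 0.0607, adjusted p = 0.00216) with IFNβ and 0.56 (SE 0.0607, adjusted p = 4.8e-07) with TIC. Under median-ratio scaling the IFNβ value was -0.12 (adjusted p = 0.136). With IFNγ+TIC the libraries held 354, 336 and 329 FPKM (0.09, SE 0.0607, adjusted p = 0.194). With IFNβ+TIC they held 278, 279.7 and 272 FPKM, a change of -0.20 (SE 0.0607, adjusted p = 0.00868) that median-ratio scaling turned to 0.03 and that lost its call without control 1 (-0.14, adjusted p = 0.0587).

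Ccnd2, which encodes cyclin D2, had the widest range of group means in this role, ranges being compared on the log2(FPKM + 1) scale here and for the other roles. It stood at 172, 172 and 157 FPKM in controls, 138, 140.4 and 122 with IFNγ, 78.3, 102 and 79.1 with IFNβ and 94.9, 75.2 and 73.3 with TIC. The IFNγ+TIC libraries held 56.0, 48.0 and 48.4 and the IFNβ+TIC libraries 49.2, 49.9 and 53.5. Every treated library lay below every control, and the libraries with an interferon and TIC lay below those with TIC alone. The log2 change was -0.95 (SE 0.109, adjusted p = 3.5e-06) with IFNβ and -1.04 (SE 0.109, adjusted p = 3.1e-07) with TIC, and -0.32 (SE 0.109, adjusted p = 0.0577) with IFNγ. Against TIC alone it fell by a further 0.66 (adjusted p = 1.9e-04) on the log2 scale with IFNγ and 0.65 (adjusted p = 1.3e-04) with IFNβ.

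Cdk4, the partner kinase of the D cyclins, had the narrowest range. Its levels were 231, 226 and 248 FPKM in controls, 232, 211 and 217 with IFNγ, 203, 176 and 164 with IFNβ and 199.6, 206 and 206 with TIC. Under IFNγ+TIC it was 168, 162 and 164, and under IFNβ+TIC 154, 155 and 170.1. The IFNγ libraries overlapped the controls and the other treated libraries lay below them. The fall with TIC, -0.21 (SE 0.0716, adjusted p = 0.0214), was small and lost its call under median-ratio scaling and without control 3 or TIC 1 (-0.17, adjusted p = 0.0868, and -0.19, adjusted p = 0.0614). Cdk6, the other partner kinase, went the opposite way and rose in all 5 comparisons with control, by 0.57 with IFNγ, 0.29 with IFNβ, 1.16 under TIC, 0.83 with IFNγ+TIC and 1.01 with IFNβ+TIC. The call with IFNβ was lost when only those groups were fitted (0.29, adjusted p = 0.0710). Its controls held 17.9, 15.4 and 19.2 FPKM and its TIC libraries 39.3, 43.7 and 38.1. Cdk2, which acts with cyclins E and A at the entry into DNA synthesis, fell to 62.1% of control with IFNβ, 55.3% with TIC and 34.6% with IFNβ+TIC. Ccnd3, which encodes cyclin D3, changed by 0.25 (SE 0.0928, adjusted p = 0.0401) with IFNβ, a call that held only when control 3 was the library left out. Without the other libraries in turn it was 0.20 to 0.28.

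The inhibitors Cdkn1a and Cdkn1b went in opposite directions with TIC. Cdkn1a RNA stood at 17.3, 21.1 and 21.4 FPKM in controls, 23.3, 17.1 and 12.9 with IFNγ, 13.6, 11.5 and 11.7 with IFNβ and 38.5, 42.3 and 42.4 with TIC. Values of 33.3, 33.6 and 36.1 were found under IFNγ+TIC and of 23.8, 25.2 and 24.9 under IFNβ+TIC. The TIC libraries lay above and the IFNβ libraries below all controls, and the IFNγ libraries spread across them. The log2 change was 1.01 (SE 0.142, adjusted p = 1.0e-05) with TIC and -0.65 (SE 0.142, adjusted p = 0.00166) with IFNβ. With IFNγ+TIC it was 0.76 (SE 0.142, adjusted p = 1.6e-04), and with IFNβ+TIC 0.30 (SE 0.142, adjusted p = 0.0786), which became 0.52 (adjusted p = 0.00380) under median-ratio scaling. IFNβ lowered Cdkn1a from either starting level, by 0.65 alone and by 0.71 on TIC (adjusted p = 6.7e-04).

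Cdkn1b stood at 17.6, 19.7 and 15.3 FPKM in controls and 9.10, 8.78 and 6.49 with TIC, where all 3 libraries lay below the controls (-1.03, SE 0.205, adjusted p = 3.8e-04). With IFNγ it was 15.8, 18.1 and 17.2 and with IFNβ 12.3, 20.1 and 17.1, overlapping the controls. With IFNγ+TIC it was 14.3, 9.58 and 8.74 (-0.66, SE 0.205, adjusted p = 0.00934) and with IFNβ+TIC 15.1, 10.5 and 8.40 (-0.62, SE 0.205, adjusted p = 0.0150). The first of these calls was lost without IFNγ+TIC 3 (-0.54, adjusted p = 0.0515), the second without control 2 (-0.53, adjusted p = 0.0582) or IFNβ+TIC 3 (-0.44, adjusted p = 0.0892), and both under median-ratio scaling.

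**Figure D3:**
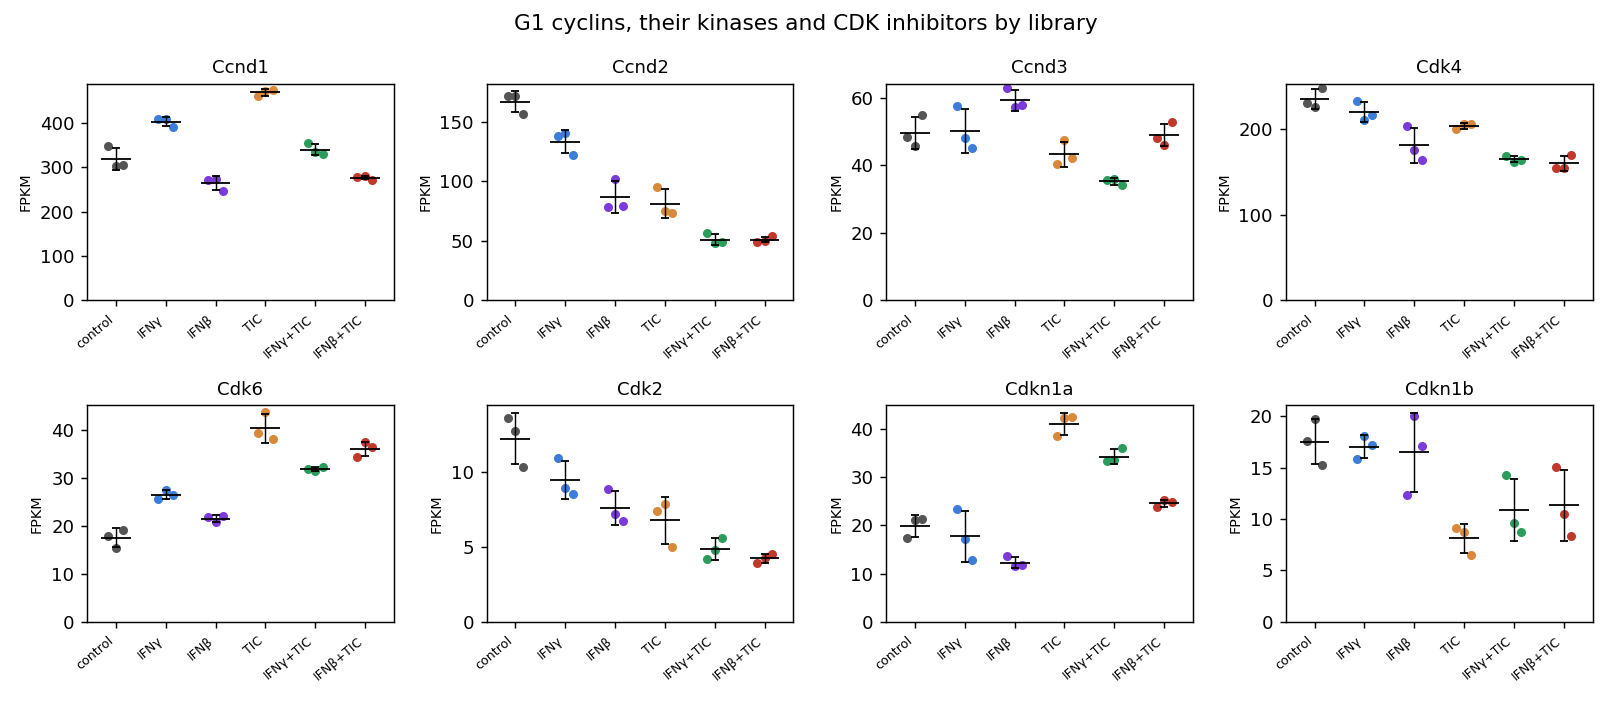
FPKM (vertical axis, from 0) of 6 G1 cyclins and kinases and 2 inhibitors in the 6 groups (horizontal axis). Points are libraries, and bars the mean and SD of 3; Cdkn1a and Ccnd1 are highest with TIC, Ccnd2 and Cdk2 are lowest where an interferon was added to TIC.

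Among other G1 regulators (19 of 28 tested), 2 rose and 9 fell with TIC (25.3% and 31.2% of all genes), 0 rose and 9 fell with IFNβ (8.86% and 29.1%), and 1 rose and 1 fell with IFNγ (7.11% and 7.17%). The median log2 change was -0.26 with TIC, -0.31 with IFNβ and -0.12 with IFNγ. Those that rose with TIC were the inhibitor genes Cdkn2a and Cdkn2b, whose products block Cdk4 and Cdk6. Cdkn2a stood at 6.73, 8.49 and 7.48 FPKM in controls and 81.2, 94.2 and 95.9 with TIC (3.42, SE 0.117, adjusted p = 1.5e-13). With IFNβ+TIC it was 22.6, 30.4 and 25.3, below every TIC library and above every control. The difference from TIC alone was -1.76 (SE 0.117, adjusted p = 1.9e-09). Cdkn2a also encodes Arf, which stabilises p53, from another reading frame, and values per gene do not separate the products. Cdkn2b rose by 1.14 with TIC. The largest falls with TIC in this list were of Skp2, which marks p27 for destruction (-1.19), and Tfdp2, a partner of E2F (-0.97).

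DNA replication and nucleotide genes fell in 9 of 10 cases with IFNβ (29.1% of all genes), 9 of 10 with TIC (31.2%) and 2 of 10 with IFNγ (7.17%). As a share of control they ranged from 56.7% to 91.4% with IFNγ, 37.7% to 95.9% with IFNβ and 26.1% to 137% with TIC. Rrm2, the regulated subunit of ribonucleotide reductase, which makes deoxynucleotides, had the widest range on that scale. It stood at 22.3, 20.3 and 18.1 FPKM in controls, 12.4, 12.5 and 9.48 with IFNγ, 8.43, 8.26 and 6.64 with IFNβ and 6.85, 8.61 and 6.69 with TIC. In the IFNγ+TIC group the values were 4.42, 4.17 and 4.62, against 4.29, 4.28 and 2.81 in the IFNβ+TIC group. All treated libraries lay below the controls, and those with an interferon and TIC lay lowest. The log2 changes against control were -0.77 (SE 0.144, adjusted p = 0.00114), -1.28 (SE 0.144, adjusted p = 2.9e-06) and -1.34 (SE 0.144, adjusted p = 4.1e-07) for the 3 single treatments in that order. On TIC, IFNγ lowered it by a further 0.63 (adjusted p = 0.00324) and IFNβ by 0.81 (adjusted p = 2.4e-04).

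Pcna, the sliding clamp that holds DNA polymerase on its template, had the narrowest range. It stood at 95.3, 109 and 95.6 FPKM in controls, 80.7, 87.2 and 76.9 with IFNγ, 78.3, 72.9 and 87.1 with IFNβ and 86.0, 75.1 and 81.0 with TIC. Where IFNγ was added to TIC it was 84.6, 76.0 and 75.5, and where IFNβ was added 80.5, 86.9 and 74.7. Its falls, -0.29, -0.33, -0.30, -0.34 and -0.30 in the same order, were called in all 5 comparisons. Under median-ratio scaling only the TIC call was kept, and the call with IFNγ was also lost without control 2, IFNγ 1 or IFNγ 3 (-0.23, -0.28 and -0.25). The authors' deposited comparisons called Pcna in none of the 5, with log2 changes of -0.22, -0.11, -0.20, -0.11 and -0.04 and the authors' adjusted p at 0.103 to 0.772.

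The 6 Mcm genes encode the ring that unwinds DNA ahead of the fork. All 6 fell with IFNβ (29.1% of all genes), TIC (31.2%), IFNγ+TIC (40.4%) and IFNβ+TIC (42.8%), and none was called with IFNγ alone (-0.38 to -0.14). Mcm5, which changed most among them, stood at 7.31, 6.43 and 6.82 FPKM in controls, 3.15, 2.18 and 2.43 with IFNβ, 1.66, 2.25 and 1.45 with TIC and 0.685, 1.52 and 0.907 with IFNβ+TIC. Its promoter window holds the E2F matches shown above. Rrm1, the large subunit of ribonucleotide reductase, fell to 69.2% of control with IFNβ and 58.1% with TIC. Tyms, which makes thymidylate, was the exception with TIC, at 0.42 (SE 0.171, adjusted p = 0.0436). That call was lost when any 1 of the 6 libraries compared was left out, with values of 0.34 to 0.48.

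Of the other replication genes (34 of 39 tested), 8 fell with IFNγ (7.17% of all genes), 19 with IFNβ (29.1%), 16 under TIC (31.2%), 24 under IFNγ+TIC (40.4%) and 25 under IFNβ+TIC (42.8%). Orc2, a subunit of the origin recognition complex, was the 1 gene of this list that rose, by 0.59 under TIC, 0.65 with IFNγ+TIC and 0.46 with IFNβ+TIC. Tk1, the salvage enzyme thymidine kinase, fell most, from 31.3, 28.4 and 28.5 FPKM in controls to 7.36, 5.55 and 5.81 with TIC and 3.85, 2.20 and 2.15 with IFNγ+TIC. Its log2 changes were -2.08 (SE 0.169, adjusted p = 1.3e-08) and -3.05 (SE 0.169, adjusted p = 4.4e-11).

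The cyclins of S phase to mitosis and Cdk1 had the lowest median percent of control among the roles in each of the 5 comparisons, 57.3% with IFNγ, 47.0% with IFNβ and 21.1% with TIC. With TIC the 4 genes stood at 13.8% to 22.1% of control, with IFNβ at 36.1% to 58.5% and with IFNγ at 54.4% to 71.6%. All 4 were called lower with IFNβ (29.1% of all genes) and with TIC (31.2%), and 3 with IFNγ (7.17%). Ccna2, cyclin A2, which works in DNA synthesis and early mitosis, was at 19.4, 18.03 and 14.3 FPKM in controls, 10.5, 9.23 and 8.42 with IFNγ, 5.72, 7.05 and 5.89 with IFNβ and 1.64, 2.701 and 2.79 with TIC. The IFNγ+TIC libraries held 2.91, 1.98 and 1.83 and the IFNβ+TIC libraries 4.10, 3.41 and 2.54. Control and the 3 single treatments formed 4 steps that did not overlap. The log2 changes were -0.81 (SE 0.173, adjusted p = 0.00367), -1.33 (SE 0.173, adjusted p = 1.4e-05) and -2.44 (SE 0.173, adjusted p = 2.1e-09). The step between IFNγ and IFNβ was not firm: its call was lost under median-ratio scaling and without 4 of the 6 libraries in turn.

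Cdk1, the kinase that drives mitosis, stood at 23.8, 17.4 and 19.8 FPKM in controls, 15.9, 16.4 and 11.3 with IFNγ, 10.6, 11.7 and 9.55 with IFNβ and 4.32, 4.95 and 3.65 with TIC. Under IFNγ+TIC it was 3.99, 5.17 and 4.90, and under IFNβ+TIC 6.30, 5.04 and 4.64. The IFNγ libraries lay below the controls, but their change, -0.46 (SE 0.152, adjusted p = 0.0521), missed the threshold. The change was -0.87 (SE 0.152, adjusted p = 2.8e-04) with IFNβ alone and -2.002 (SE 0.152, adjusted p = 5.3e-09) with TIC. Ccnb1 and Ccnb2, the B cyclins that switch Cdk1 on, fell to 22.1% and 21.0% of control with TIC.

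Mitotic kinases and checkpoint genes fell in 9 of 9 cases with TIC (31.2% of all genes), 8 with IFNβ (29.1%) and 6 with IFNγ (7.17%). On the log2(FPKM + 1) scale the widest range was that of Ube2c, which loads ubiquitin for the anaphase-promoting complex. As a ratio of FPKM, Bub1b went further, to 7.65% of control under IFNγ+TIC against 12.3% for Ube2c. Ube2c stood at 23.4, 29.2 and 21.4 FPKM in controls, 14.1, 14.0 and 11.5 with IFNγ, 12.7, 11.7 and 7.69 with IFNβ and 4.42, 1.99 and 2.75 with TIC. Values of 3.24, 3.47 and 2.41 were found under IFNγ+TIC and of 6.16, 5.73 and 5.50 under IFNβ+TIC. The last 3 libraries all lay above the TIC libraries and below the IFNβ libraries. The log2 change was -2.696 (SE 0.198, adjusted p = 3.4e-09) with TIC, and IFNβ on TIC raised it by 0.79 (SE 0.198, adjusted p = 0.00425). Aurka, the kinase of the spindle poles, had the narrowest range. It was at 9.48, 5.77 and 5.39 FPKM in controls, 4.24, 5.79 and 5.26 with IFNγ, 5.65, 5.06 and 4.56 with IFNβ and 3.63, 4.38 and 4.97 with TIC. In the IFNγ+TIC group the values were 2.78, 3.96 and 3.80, against 5.21, 3.59 and 4.73 in the IFNβ+TIC group. Its call with TIC (-0.54, SE 0.180, adjusted p = 0.0177) was lost without control 1 (-0.31, adjusted p = 0.127) or TIC 1 (-0.44, adjusted p = 0.0775). The remaining 7 genes fell with TIC to between 11.3% (Bub1b, of the spindle checkpoint) and 48.3% (its relative Bub1) of control. Between these stood Plk1, a mitotic kinase (16.6%), Cdc20, which activates the anaphase-promoting complex (36.2%), and Aurkb, Birc5 and Cdca8 of the chromosomal passenger complex (23.3%, 26.8% and 47.3%).

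Spindle, kinetochore and cytokinesis genes fell in 7 of 7 cases with TIC (31.2% of all genes), 6 of 7 with IFNγ (7.17%) and 6 of 7 with IFNβ (29.1%). Nusap1, which bundles spindle microtubules, stood at 12.7, 9.40 and 10.2 FPKM in controls, 5.01, 5.35 and 5.10 with IFNγ, 4.05, 3.55 and 3.16 with IFNβ and 0.997, 1.14 and 1.65 with TIC. Where IFNγ was added to TIC it was 1.43, 1.26 and 1.30, and where IFNβ was added 3.17, 2.14 and 1.73. Here too the single treatments formed steps without overlap, at -0.93 (SE 0.152, adjusted p = 3.5e-04), -1.36 (SE 0.152, adjusted p = 2.8e-06) and -2.38 (SE 0.152, adjusted p = 5.4e-10). The call between IFNγ and IFNβ was lost under median-ratio scaling and without 5 of the 6 libraries in turn. Kif23, a kinesin of the midbody where daughter cells part, broke the pattern of steps. It was at 5.85, 3.24 and 3.65 FPKM in controls, 3.13, 4.33 and 3.33 with IFNγ, 4.37, 4.73 and 5.07 with IFNβ and 2.10, 2.36 and 2.28 with TIC. The IFNγ+TIC libraries held 2.25, 3.03 and 3.00 and the IFNβ+TIC libraries 4.98, 4.43 and 4.19. The controls were wide, with 1 library well above the others, and only the TIC and the IFNγ+TIC libraries lay below all 3 of them. It fell with TIC (-0.66, SE 0.156, adjusted p = 0.00166), changed by 0.16 (SE 0.156, adjusted p = 0.458) with IFNβ, and rose by 0.77 (SE 0.156, adjusted p = 8.4e-04) when IFNβ was added to TIC. Kif11, the motor that pushes the spindle poles apart, fell to 38.1% of control with IFNγ, 37.4% with IFNβ and 9.67% with TIC. Cenpf of the kinetochore, Kif20a and Prc1 of the central spindle and Tpx2, which activates Aurka, stood at 16.4%, 23.8%, 28.2% and 26.8% of control with TIC.

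Of the chromatin and growth markers all 4 fell with each of the 5 treatments, which lowered from 7.17% (IFNγ) to 42.8% (IFNβ+TIC) of all genes. Mki67, which encodes the antigen Ki-67 used to stain cycling cells, was expressed at a low level, 2.07, 2.12 and 2.19 FPKM in controls, 1.15, 1.28 and 1.43 with IFNγ, 0.868, 1.09 and 0.871 with IFNβ and 0.341, 0.189 and 0.350 with TIC. Under IFNγ+TIC it was 0.186, 0.266 and 0.277, and under IFNβ+TIC 0.414, 0.324 and 0.361. The controls lay close together, and the 3 groups given TIC lay below all the rest. The pseudocount of 1 shrinks changes at such levels: the log2 change with TIC was -1.28 (SE 0.111, adjusted p = 3.0e-08), while the mean stood at 13.8% of control. The call with IFNγ (-0.45, SE 0.111, adjusted p = 0.00980) was lost at a pseudocount of 0.1 (-0.69, adjusted p = 0.105) and with only those groups fitted.

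Top2a, the topoisomerase that untangles replicated DNA, had the widest range. It stood at 14.6, 11.001 and 7.76 FPKM in controls, 5.84, 6.88 and 5.91 with IFNγ, 3.76, 3.14 and 3.61 with IFNβ and 1.01, 0.829 and 1.01 with TIC. Values of 0.773, 1.46 and 0.856 were found under IFNγ+TIC and of 2.26, 1.09 and 1.04 under IFNβ+TIC. The single treatments again formed steps without overlap, with changes of -0.71 (SE 0.200, adjusted p = 0.0224), -1.39 (SE 0.200, adjusted p = 4.1e-05) and -2.60 (SE 0.200, adjusted p = 6.1e-09). Between IFNγ and IFNβ the call was lost under median-ratio scaling and without 2 of the 6 libraries in turn. The call with IFNγ was lost without control 1, control 2, IFNγ 1 or IFNγ 3, at -0.51, -0.70, -0.68 and -0.68. Stmn1, a microtubule regulator also used by neurons, had the narrowest range, with 116, 118 and 112 FPKM in controls, 88.8, 84.1 and 77.8 with IFNγ, 75.4, 73.2 and 82.0 with IFNβ and 58.1, 53.5 and 60.0 with TIC. In the IFNγ+TIC group the values were 55.2, 57.4 and 60.6, against 58.8, 57.4 and 53.7 in the IFNβ+TIC group, so that the groups with TIC overlapped. Its change with TIC was -0.997 (SE 0.0678, adjusted p = 1.2e-09).

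Like Kif23, Hmgb2, a chromatin protein abundant in dividing cells, rose back toward control once IFNβ was added to TIC. It stood at 39.6, 40.1 and 32.8 FPKM in controls, 22.4, 27.9 and 22.9 with IFNγ, 24.5, 24.9 and 27.1 with IFNβ and 12.7, 12.2 and 10.8 with TIC. Where IFNγ was added to TIC it was 18.8, 17.9 and 15.3, and where IFNβ was added 36.5, 27.6 and 27.7. The TIC libraries were the lowest, and 1 IFNβ+TIC library reached into the range of the controls. Its small fall against control with IFNβ+TIC (-0.29, SE 0.119, adjusted p = 0.0425) was lost under median-ratio scaling, at -0.07 (adjusted p = 0.670), and when leaving out control 1, control 2, IFNβ+TIC 2 or IFNβ+TIC 3 (-0.25, -0.24, -0.23 and -0.23). Against TIC alone the change was 1.28 (SE 0.119, adjusted p = 1.9e-07) with IFNβ and 0.51 (SE 0.119, adjusted p = 0.00394) with IFNγ. Hmgb2, Stmn1 and other short genes of this set have processed copies in mammalian genomes, and how the authors' counting shared out their reads is not stated in the labels.

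**Figure D4:**
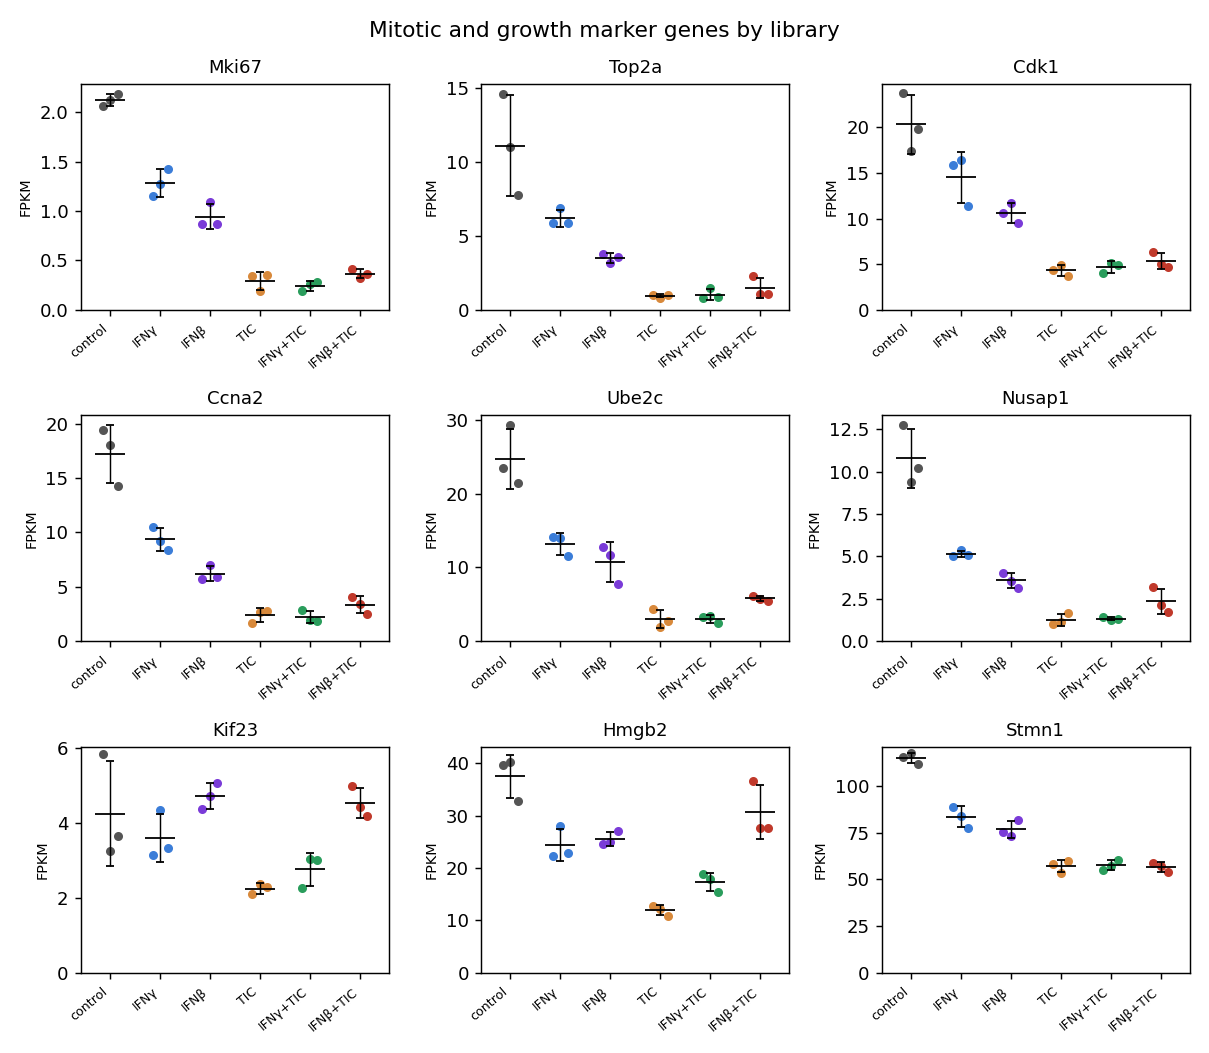
FPKM (vertical axis, from 0) of 9 mitotic and growth marker genes in the 6 groups (horizontal axis). Points are libraries, and bars the mean and SD of 3; most genes step down from control through IFNγ and IFNβ to TIC, and Hmgb2 and Kif23 return toward control with IFNβ+TIC.

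IFNβ and IFNγ lowered different shares of the set, and the direct comparison between them gave 18 of 42 genes lower with IFNβ (19.3% of all genes tested) and 0 higher (5.77%). This count rested on single libraries and on the scaling: it was 10 without IFNγ 1, 9 without IFNβ 3 and 7 under median-ratio scaling (10.4% of all genes), where 1 gene, Ccnd3, was higher (9.04%). By role, 7 of 10 replication genes and 1 of 9 mitotic kinases and checkpoint genes were lower with IFNβ than with IFNγ, or 4 and 1 under median-ratio scaling, and no difference between roles was tested. Ccnd1 differed by -0.61 (SE 0.0607, adjusted p = 1.0e-06), Ccnd2 by -0.63 (SE 0.109, adjusted p = 4.6e-04) and Mcm5 by -0.83 (SE 0.151, adjusted p = 7.1e-04). Mki67 was not called, at -0.23 with a 95% interval of -0.47 to 0.00.

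On top of TIC, and without rescaling, the shares of cell cycle genes that an interferon changed lay near or below those of all genes. IFNγ on TIC lowered 11 of 42 (26.2%, against 21.8% of all genes) and raised 1 (2.38%, against 7.42%). IFNβ on TIC lowered 10 (23.8%, against 31.5%) and raised 4 (9.52%, against 9.86%). Under median-ratio scaling IFNγ lowered 7 of 42 (against 11.9% of all genes), and IFNβ raised 10 of 42 (against 15.7%), both larger shares than those of all genes. By role, and with no test of a difference between roles, those lowered with IFNγ were 5 of 6 G1 genes (Ccnd1, Ccnd2, Ccnd3, Cdk4 and Cdk6), 4 of 10 replication genes and 2 of 9 mitotic kinases and checkpoint genes. Under median-ratio scaling Ccnd3, Cdk4, Cdk6 and Mcm5 lost that call (adjusted p = 0.196, 0.0507, 0.0553 and 0.0588), which left 2 of 6 and 3 of 10. The call of Ccnd3 was also lost without 5 of the 6 libraries in turn (-0.34 to -0.22 over the 6) and that of Mcm5 without 3 (-0.57 to -0.36). With IFNβ those lowered were 4 of 6 G1 genes, Cdkn1a and 5 of 10 replication genes, with 0 of the 24 genes of the later roles. Median-ratio scaling ended the calls of Mcm4, Mcm5 and Rrm1 with IFNβ (adjusted p = 0.372, 0.0691 and 0.453) and left 2 of 10. These 3 were also lost without 4, 3 and 3 of the 6 libraries in turn (-0.39 to -0.23, -0.63 to -0.34 and -0.32 to -0.19). With library quality weights Cdca8, of a later role, was called lower (-0.32, adjusted p = 0.0249). Those raised by IFNβ were Hmgb2, Ube2c, Kif23 and Nusap1, and that of Nusap1 (0.55, SE 0.152, adjusted p = 0.00781) was lost without IFNβ+TIC 1 (0.38, adjusted p = 0.0560). Cdk1, Mki67 and Top2a were not called, at 0.25 (95% interval -0.07 to 0.57), 0.08 (-0.15 to 0.32) and 0.30 (-0.12 to 0.73) with IFNβ on TIC. Under median-ratio scaling the 10 genes raised by IFNβ were the same 4 and Ccnd3, Ccna2, Plk1, Kif20a, Prc1 and Tpx2. They included 5 of 7 spindle genes.

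The change that IFNβ made alone differed from the one it made on TIC for 26 of 42 genes. For 24 of them the change on TIC minus the change alone was positive (7.16% of all genes tested), and for Ccnd1 and Cdk6 it was negative (8.66%). The positive ones included all 4 of the S to M cyclins and Cdk1, 7 of 9 mitotic kinases and checkpoint genes, 6 of 7 spindle genes, all 4 chromatin and growth markers, and Mcm3, Mcm5 and Mcm6. Nusap1 changed by -1.36 with IFNβ alone and by 0.55 on TIC, a difference of 1.91 (SE 0.215, adjusted p = 1.5e-05). For Top2a the values were -1.39 and 0.30, a difference of 1.70 (SE 0.283, adjusted p = 6.0e-04). For IFNγ the difference was positive for 7 genes (3.64% of all genes) and negative for Ccnd1 and Cdk6 (10.2%). Ccnd1 rose by 0.34 with IFNγ alone and fell by 0.47 with IFNγ on TIC, a difference of -0.81 (SE 0.0859, adjusted p = 8.9e-06). Many mitotic genes stood at 1 to 5 FPKM with TIC, where a pseudocount of 1 shrinks changes. Mki67, Cenpf, Bub1b, Kif11 and Top2a stood lower still, at means of 0.293, 0.260, 0.556, 0.670 and 0.948, and Nusap1 at 1.26. From such levels log2(FPKM + 1) cannot fall on TIC by as much as it fell with IFNβ alone. The positive sign for these genes was therefore set by the scale and does not show a changed response. At a pseudocount of 0.1 the positive counts were 20 for IFNβ (5.89% of all genes) and 5 for IFNγ (3.15%).

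**Figure D5:**
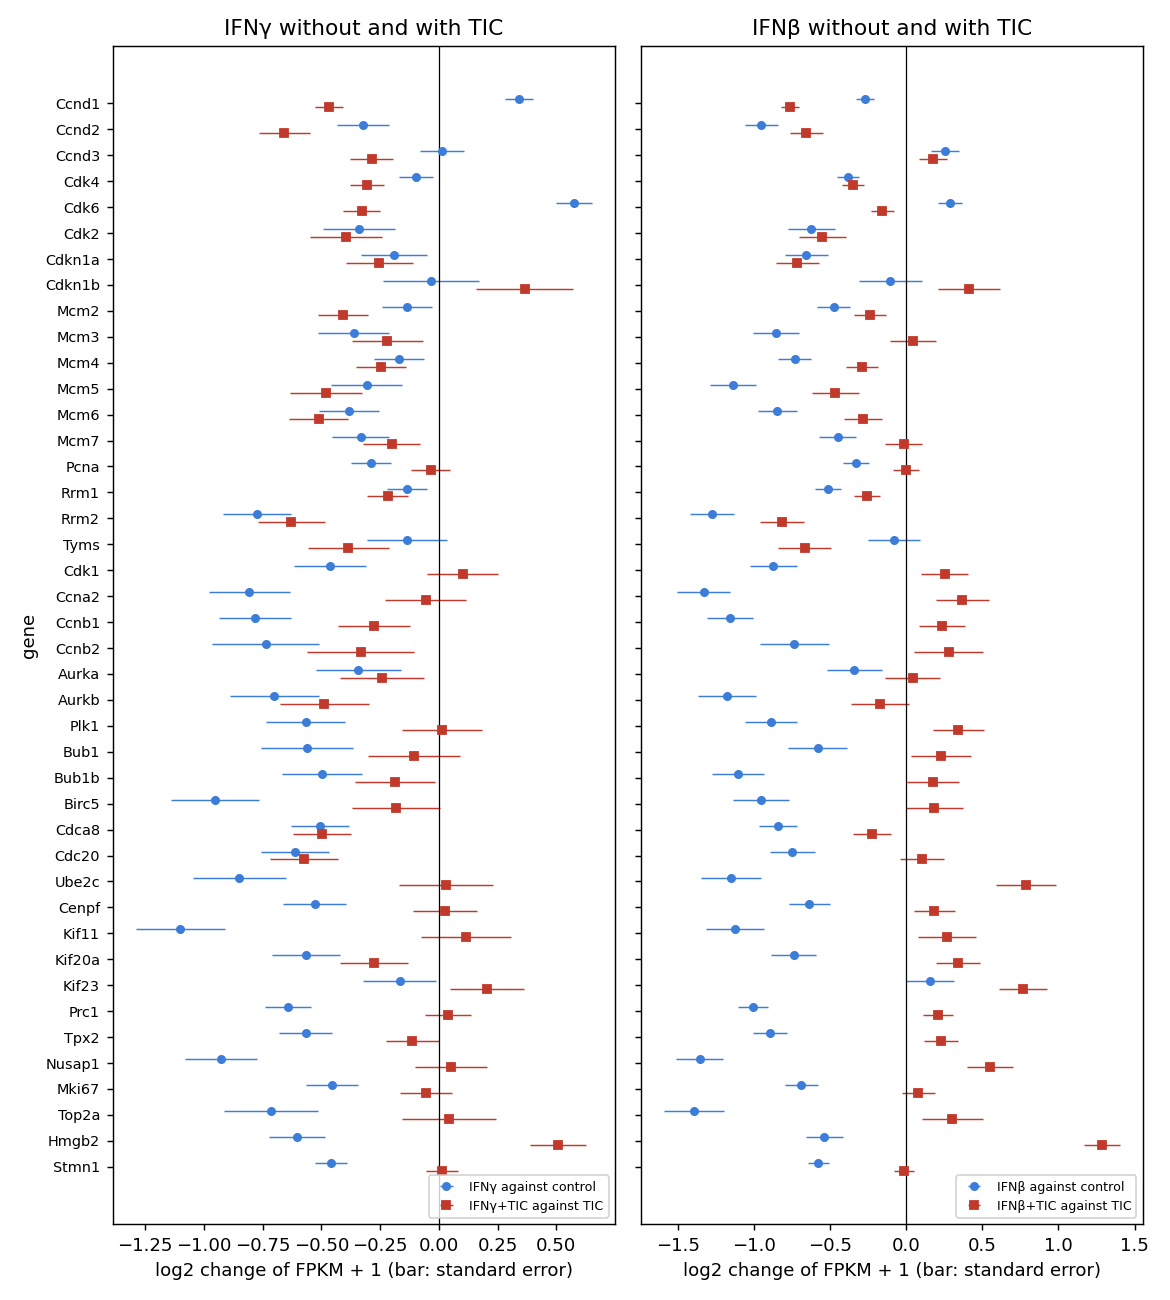
Log2 change of FPKM + 1 (horizontal axis, bars are standard errors, 3 libraries a group) for each of the 42 genes (vertical axis). Circles are interferon alone against control and squares interferon with TIC against TIC; for the 36 genes other than the G1 cyclins and kinases the circles lie left of 0, apart from that of Kif23 with IFNβ at 0.16, while Ccnd1 and Cdk6 lie further left on TIC than alone.

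Other mitosis genes (38 of 48 tested) were mostly lower as well: 21 fell with IFNγ (7.17% of all genes), 31 with IFNβ (29.1%), 32 under TIC (31.2%), 31 under IFNγ+TIC (40.4%) and 32 under IFNβ+TIC (42.8%). Cdca3, a trigger of mitotic entry, fell most with TIC, at -2.24 (SE 0.171, adjusted p = 5.5e-09). The 2 that rose with TIC were Gtse1, a p53 regulator made in the second gap phase, from 13.4, 14.97 and 10.3 to 34.4, 39.5 and 38.6 FPKM (1.48, SE 0.137, adjusted p = 6.8e-08), and Cks2, a small Cdk1 partner (0.66, SE 0.135, adjusted p = 4.8e-04). For 23 of the 38 the change with IFNβ on TIC minus that alone was called positive (7.16% of all genes), and for Gtse1 negative.

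In the authors' deposited table of comparisons with control, members were lower and higher, at its adjusted p under 0.05, in 25 and 2 cases with IFNγ (5.18% and 8.32% of its genes), 31 and 2 with IFNβ (12.2% and 15.8%), 35 and 4 with TIC (26.6% and 28.4%), 36 and 4 with IFNγ+TIC (31.0% and 32.8%), and 31 and 3 with IFNβ+TIC (26.6% and 30.2%). Of the genes lower in the authors' deposited table, 20, 31, 35, 36 and 31 were also called lower here, and 0 were called in opposite directions. Of those higher in it, 2, 2, 4, 2 and 1 were also called higher here. Lower calls made here with IFNβ (36) and IFNβ+TIC (37) were shared for 31 and 31 genes. Genes called there and not here included Mcm3, Cdk1 and Ccnd2, lower with IFNγ (the authors' adjusted p at 0.0289, 0.0214 and 0.0249). Others were Ccnd1, higher with IFNγ+TIC (3.6e-04), and Cdkn1a, higher with IFNβ+TIC (3.6e-06).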

How the data were processed

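Per the labels' protocols, total RNA was taken with a column kit, amplified with SMART-seq HT, made into Nextera XT libraries and sequenced on a NovaSeq6000. The submitters' processing notes name HISAT2, StringTie, DESeq2 and the mouse build mm10, although the identifiers are rat Ensembl ones, so the genome used for alignment remains unclear. The authors deposited FPKM per library, and, for 5 comparisons with control, a log2 fold change and an adjusted p-value per gene, per the file headers. No counts were used here, so depth is unknown and no counting interval is given.

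Of 10434 rows, 3 without a gene name were left out (0.01197% of FPKM or less). Spreadsheet software had made numbers of 17 symbols, of which 15 genes were kept under their Ensembl identifier. Genes with at least 1 FPKM in at least 3 libraries (10296) were fitted with limma 3.58.1 (R 4.3.3) on log2(FPKM + 1), all 18 libraries in the same model with a trended prior variance. Two-sided p-values were adjusted over these genes by Benjamini-Hochberg, and genes were called at an adjusted p under 0.05. An interaction is the change with interferon on TIC minus that with interferon alone. The fit was tested on simulated data. Between libraries of the same group at most 0.894% of genes held identical values. Tables were joined in Python 3.11.15 with pandas 2.3.3.

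The members, the further lists (other G1 regulators, other replication, other mitosis, p53 targets) and the marker lists were chosen with earlier results of these data known. Values in every library are given for Mki67, Cdk1, Ccnd1, Cdkn1a and, in each role, for the genes with the widest and the narrowest range of group means. Of the further lists, up to 2 called genes with the largest changes either way in a comparison are named from each. Cdk6, Mcm5, Tyms and Hmgb2 were given more room after their values were seen. Alternatives were a pseudocount of 0.1, no filter, median-ratio scaling, rescaling to TPM, library quality weights, the replicate number as a block, only the groups compared, and leaving out each library in turn. Promoter windows are from RefSeq, build GRCr8; 9 members without a window are Cdk6, Ccna2, Ccnd1, Ccnd2, Mcm4, Rrm2, Aurkb, Tpx2 and Ube2c.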

Additional observations from a re-analysis of the deposited data

Results flagged for a closer look

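These genes stood out because the change an interferon made on TIC differed from the change it made alone, by limma's test of that difference at an adjusted p under 0.05. Each value is the log2 change on TIC minus the log2 change alone. For IFNγ they were Ccnd1 (-0.81), Cdk6 (-0.90), Ccna2 (0.75), Ube2c (0.88), Kif11 (1.22), Prc1 (0.68), Nusap1 (0.98), Hmgb2 (1.11) and Stmn1 (0.47). For IFNβ the negative ones were Ccnd1 (-0.49) and Cdk6 (-0.44). The positive ones for IFNβ among replication genes were Mcm3 (0.90), Mcm5 (0.68) and Mcm6 (0.56). Among cyclins, mitotic kinases and checkpoint genes they were Cdk1 (1.12), Ccna2 (1.70), Ccnb1 (1.39), Ccnb2 (1.01), Aurkb (1.0004), Plk1 (1.23), Bub1b (1.28), Birc5 (1.14), Cdca8 (0.62), Cdc20 (0.85) and Ube2c (1.94). Among spindle genes and growth markers they were Cenpf (0.82), Kif11 (1.39), Kif20a (1.08), Prc1 (1.21), Tpx2 (1.12), Nusap1 (1.91), Mki67 (0.77), Top2a (1.70), Hmgb2 (1.82) and Stmn1 (0.56). With 3 libraries a group no library was tested for standing apart.

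For Mki67, Cenpf, Bub1b, Kif11, Top2a and Nusap1 with IFNβ the positive sign was set by the log2(FPKM + 1) scale, as described above. Several of the flagged calls were not stable. Ccna2 with IFNγ was lost at a pseudocount of 0.1 (0.79, adjusted p = 0.112) and without 9 of the 12 libraries in turn, with values of 0.58 to 0.83 there. Ube2c with IFNγ was lost at that pseudocount (0.94, adjusted p = 0.0770) and also without 9 of the 12 libraries in turn (0.68 to 0.93). Mcm5 with IFNβ was lost at that pseudocount (0.61, adjusted p = 0.250) and without 9 of the 12 libraries in turn (0.51 to 0.71). Mcm6, Ccnb2 and Aurkb with IFNβ were lost at a pseudocount of 0.1 too.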

How the results depend on the processing

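Counts of members called lower or higher against control stayed within 1.5 times of the reported ones for lower calls in all 5 comparisons under each alternative listed here. Exceptions among higher calls and other comparisons follow. Higher with IFNβ (2) became 1 with TPM rescaling, 1 with the replicate block and 0 with only the groups compared, the last by limma on 6 libraries. Higher with IFNβ+TIC (1) became 3 with median-ratio scaling, 2 with quality weights and 2 with only the groups compared. With median-ratio scaling, lower with IFNγ on TIC (11) became 7, higher with IFNβ on TIC (4) became 10, lower with IFNβ against IFNγ (18) became 7 and higher (0) became 1; quality weights also gave 1 there. The same scaling turned the log2 changes of Ccnd1 and Ccnd3 with IFNβ+TIC from -0.20 and -0.02 to 0.029 and 0.21. The cause was not tested.

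Leaving out 1 library at a time, lower and higher counts ranged over 14 to 22 and 2 to 2 with IFNγ, 34 to 36 and 1 to 2 with IFNβ, 35 to 38 and 3 to 3 with TIC, 37 to 38 and 2 to 3 with IFNγ+TIC, and 33 to 37 and 1 to 1 with IFNβ+TIC. They ranged over 9 to 13 and 1 to 1 for IFNγ on TIC, 7 to 10 and 3 to 6 for IFNβ on TIC, and 9 to 16 and 0 to 1 for IFNβ against IFNγ. For the differences between changes they were 2 to 2 and 5 to 8 with IFNγ, and 2 to 3 and 20 to 24 with IFNβ.

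Of 420 single values, calls were lost or gained for 35 and 11 under median-ratio scaling (the 2 that turned sign included), 28 and 5 with only the groups compared, 16 and 1 at a pseudocount of 0.1, 4 and 14 with quality weights, 3 and 8 with TPM rescaling and 1 and 0 without the filter. Libraries with the same replicate number did not pair: over 45 such pairs their deviations correlated at -0.173 to 0.155, with 6 over 0.1, and the replicate block lost 4 calls and gained 9. FPKM keep no depth, so the counting error of low genes such as Mki67 is unknown.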

Other observations

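Targets of p53 (16 of 18 tested), the factor that raises Cdkn1a after damage or stress, mostly rose with TIC. With TIC 11 rose and 3 fell (25.3% and 31.2% of all genes), with a median log2 change of 0.72 over the 16. Ccng1, a cyclin-like gene, stood at 150.1, 190.3 and 162 FPKM in controls and 455, 456 and 435 with TIC (1.42, SE 0.103, adjusted p = 2.7e-09), and Plk2, a stress-responsive kinase, at 19.9, 18.6 and 18.7 and 41.3, 50.1 and 51.3 (1.27, SE 0.0998, adjusted p = 8.2e-09). With IFNγ 3 rose and 0 fell (7.11% and 7.17% of all genes), and with IFNβ 0 rose and 9 fell (8.86% and 29.1%). When IFNβ was added to TIC, 13 of the 16 fell against TIC alone and 0 rose (31.5% and 9.86%), with a median of -0.56. Plk2 then changed by -1.23 (SE 0.0998, adjusted p = 3.3e-08). Under IFNγ+TIC 10 rose and 4 fell against control (22.9% and 40.4%), and Sesn1, a target linked to nutrient sensing, was among those that fell (-1.50, SE 0.108, adjusted p = 1.5e-09). The list holds targets in common use, and p53 activity itself was not measured.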
